A study of Mus musculus with 9 samples.

Results

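Interferon-stimulated genes are the genes that cells switch on when an interferon binds its receptor at the cell surface. Type I and type III interferons activate JAK kinases and, through them, transcription factors such as STAT2 and IRF9 that act at a DNA element called the interferon-stimulated response element, while interferon gamma acts mainly at a second element, the gamma-activated sequence. The proteins made include sensors of viral RNA, enzymes that block viral replication and parts of the machinery that presents antigens on MHC class I. In skin they are known from antiviral defence, and keratinocytes can both make and answer interferons.

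A list of 37 such genes was described in basal epidermal cells of mouse tail skin, 4 days after a wound of 3 mm. The members were chosen by gene symbol, and 34 of the 37 were measured, among 17097 genes in all. Isg15, Ifi44 and Bst2 were not analysed here. Each gene was read from its brightest probe set (by the mean of all 9 arrays), and 12 of the 34 members had more than 1 probe set.

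The 9 samples came from CD1 mice and fell into 3 groups of 3. Leading edge (LE) cells were taken with a 4 mm punch around the wound and gated as α5 integrin positive. Proliferative hub cells were gated as α5 integrin negative. The methods give a 6 mm punch for the hub, but the legend for the α5 integrin sort names only the 4 mm punch around the wound. The punch used for these hub arrays is therefore not certain. For control cells the labels give wounded tail epidermis too, at a distance from the wound, and mention no gate on α5 integrin. All cells were positive for α6 integrin and negative for CD34, and each array was made from 300 sorted cells. The methods give a pool of 5 mice for samples made in duplicate by the same dissection, and state no pool for these triplicates. Region and gate therefore cannot be told apart. Replicates are biological in the labels and technical in the methods, and the p-values cover only how much these arrays vary, part of which may be technical.

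Values are log2 signals made with RMA, a method that brings the arrays to a similar distribution. Each difference is a log2 fold change, given ± its standard error in the limma fit, and a gene was called where its p-value, adjusted over all genes by the Benjamini-Hochberg method, was under 0.05. Array medians were 6.47 to 6.53. The median of 23 probe sets that read nonspecific background was 4.66 (range 3.66 to 8.61). The 7 members Dhx58, Oas3, Oasl1, Ifit1, Ifit2, Usp18 and Gbp3 averaged under 5.73, which is 1 unit above the highest background median of an array, and are called dim here. The basal keratins Krt5 and Krt14 read between 13.23 and 13.34 on every array, but the list of 10 basal keratinocyte markers they belong to was less even. At the LE 4 of the 10 were called as higher and 2 as lower, against hub and also against control (40% and 20%). Of all genes, 5.39% and 5.23% were so called against hub, and 11.9% and 10.8% against control. Log2 fold changes of the 10 ran from -2.41 to 1.25 for LE over control. Markers of other cells were not even across arrays. The mean of 17 myeloid markers was 6.13 to 6.62 at the LE, 6.04 to 6.10 in the hub and 5.84 to 5.95 in control skin. That list includes S100a8, which the authors report as raised in both wound regions. Between hub and control 1 of the 17 was called, as higher (5.88%, against 4.16% of all genes). The median log2 fold change of the 17 was 0.06 there, and the largest was 2.51. The mean of 12 endothelial markers was 6.37 to 7.28 at the LE, 6.36 to 6.74 in the hub and 6.10 to 6.34 in control skin. In LE replicate 3 the melanocyte gene Tyrp1 read 7.77, against 5.05 to 5.29 on the other 8 arrays. The mean of 11 Langerhans and dendritic cell markers was 7.24 to 7.56 at the LE, 7.01 to 7.05 in the hub and 7.01 to 7.09 in control skin. Of the 11, 2 were called as higher at the LE in each comparison (18.2%, against 5.39% of all genes for LE over hub and 11.9% for LE over control). The part of these cells in the results below was not tested. In such sorted pools, fewer cells of a type and less RNA per cell cannot be told apart.

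As a group, the interferon-stimulated genes did not move in one direction around the wound. Between LE and hub 1 member rose and 1 fell, which is 5.88% of the 34 members against 10.6% of all genes called (5.39% as higher and 5.23% as lower). Between LE and control 4 rose and 6 fell (29.4% of members, against 22.8% of all genes, 11.9% higher and 10.8% lower). Between hub and control 3 rose and 3 fell (17.6%, against 7.28% of all genes, 4.16% higher and 3.12% lower). The 3 LE arrays lay wholly above the 3 hub arrays for 5 members (14.7%, against 14.5% of all genes) and wholly below them for 4 (11.8%, against 15.4%). Against control, the LE arrays lay wholly above for 7 members (20.6%, against 20.0%) and wholly below for 10 (29.4%, against 16.2%), and the hub arrays wholly above for 4 (11.8%, against 14.4%) and wholly below for 8 (23.5%, against 9.41%). The median log2 fold change of the members was 0.03 for LE over hub, -0.05 for LE over control and -0.06 for hub over control, beside -0.01, 0.02 and 0.03 over all genes. In all, 10 members were called in at least 1 comparison and 24 in none. The calls against control share the 3 control arrays and are not independent of each other.

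**Figure D1:**
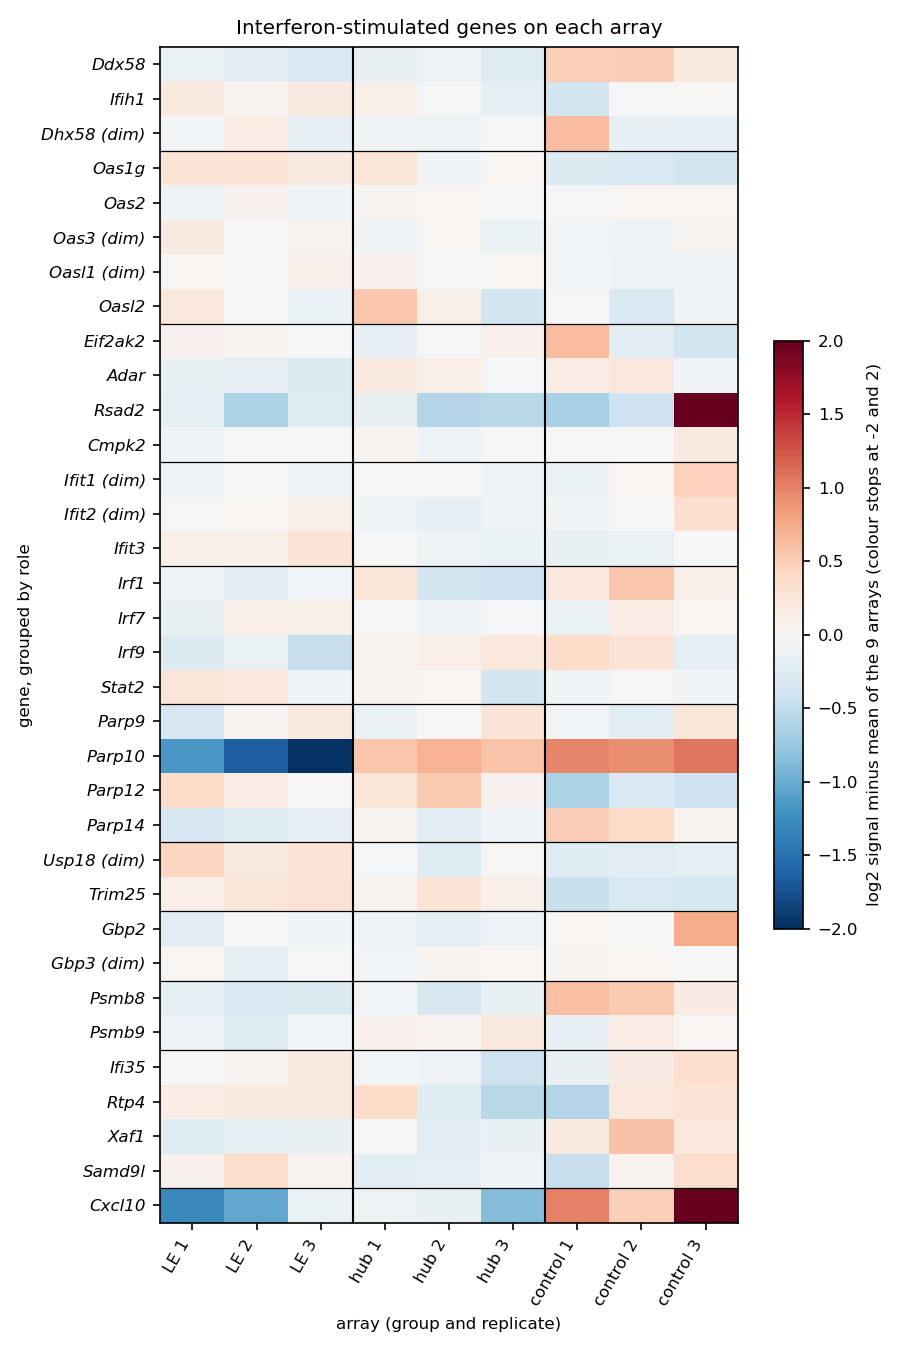
Log2 signal of 34 interferon-stimulated genes on each of the 9 arrays, as the difference from the gene's own mean (colour, log2 units, stopping at -2 and 2), with columns for LE, hub and control replicates and rows grouped by role (dim, mean under 5.73). Parp10 is low in all 3 LE arrays, Cxcl10 is high in all 3 control arrays, and Rsad2 is high in control replicate 3 alone.

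The sequence around each member's start was searched for both response elements. RefSeq promoter windows (GRCm38.p6), from 250 bases before to 50 after each gene's start, were found for 27 of the 34 members. The core of the interferon-stimulated response element, GAAANNGAAA on either strand, was present in 12 of these 27 (44.4%) and in 3.99% of the 27025 genes with a window. The core of the gamma-activated sequence, TTCNNNGAA, was present in 6 of 27 (22.2%) and in 9.55% of all genes. The 12 genes with the first core were Ddx58, Ifih1, Oas1g, Oas3, Eif2ak2, Rsad2, Ifit1, Ifit3, Stat2, Gbp2, Gbp3 and Cxcl10. At the LE against control, Oas1g rose, Ddx58 and Cxcl10 fell and the other 9 were not called, and 3 of 12 is close to the 22.8% of all genes called there. A match is a description of letters and not of a bound site. The stretches below, from genes whose values are given in the following paragraphs, are shown 5′ to 3′ on the strand of the gene with the core, or its reverse complement, in capitals. Oas1g held a second match to the same core that overlaps the one shown. None of these matches overlapped a match to the other core.
Cxcl10 (chr5:92349083-92349112, minus strand, core at -213 to -204 from the gene's start): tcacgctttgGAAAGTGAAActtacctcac
Rsad2 (chr12:26456553-26456582, minus strand, core at -120 to -111): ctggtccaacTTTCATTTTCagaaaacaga
Gbp2 (chr3:142620594-142620623, plus strand, core at -59 to -50): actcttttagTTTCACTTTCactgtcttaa
Ifit3 (chr19:34583363-34583392, plus strand, core at -156 to -147): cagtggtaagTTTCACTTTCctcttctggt
Oas1g (chr5:120887612-120887641, minus strand, core at -18 to -9): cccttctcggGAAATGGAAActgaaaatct
Irf1 (chr11:53769914-53769942, plus strand, gamma-activated core at -90 to -82): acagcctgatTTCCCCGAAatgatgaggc
Psmb8 (chr17:34198088-34198116, plus strand, gamma-activated core at -97 to -89): tcctccgctgTTCCCAGAAgatgcccccc

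Parp10 had the largest difference of any member. It encodes a mono-ADP-ribosyltransferase, an enzyme that adds single ADP-ribose units to proteins. It read 8.69, 8.21 and 7.88 in LE replicates 1 to 3, against 10.42, 10.56 and 10.43 in hub and 10.84, 10.79 and 10.93 in control replicates. Every LE array was thus far below every hub array, while the hub arrays lay just below the control arrays. Parp10 fell by 2.20 ± 0.17 at the LE against the hub (4.61-fold, adjusted p = 5.85e-05). It also fell by 2.59 ± 0.17 against control (6.02-fold, adjusted p = 6.14e-06). Both calls held with any 1 of the 9 arrays left out (adjusted p up to 0.000612). Between hub and control the value was -0.38 ± 0.17 and missed the threshold (adjusted p = 0.244), which it passed in a fit of those 6 arrays alone (adjusted p = 0.0361).

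None of the other interferon-stimulated members of the PARP family was called between LE and hub. Parp12, which is known as an antiviral ADP-ribosyltransferase, read 6.40, 6.17 and 6.02 at the LE and 6.27, 6.55 and 6.11 in the hub, against 5.39, 5.73 and 5.62 in control. All 6 wound arrays were above the 3 control arrays. It rose by 0.62 ± 0.14 at the LE (adjusted p = 0.0105) and by 0.73 ± 0.14 in the hub (adjusted p = 0.0136), both against control. Like Parp10 and unlike Parp12, Parp14, another mono-ADP-ribosyltransferase, was lower at the LE than in control. It read 7.23, 7.31 and 7.39 at the LE and 7.62, 7.34 and 7.49 in the hub, against 8.05, 7.93 and 7.62 in control. It fell by 0.56 ± 0.12 at the LE against control (adjusted p = 0.00691), and in the hub the value of -0.39 ± 0.12 missed the threshold (adjusted p = 0.0861) but passed it without control replicate 3 (-0.51, adjusted p = 0.0221). The dimmer of its 2 probe sets differed by -0.10 between LE and control and was not called. Parp9, whose product works as a pair with that of Dtx3l, had differences between -0.07 and 0.05 in the 3 comparisons and was not called. Dtx3l itself fell at the LE against control by 0.44 ± 0.14 (adjusted p = 0.0459).

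Of 10 further PARP genes outside the member list, 1 rose and 0 fell between LE and hub (10% and 0%, against 5.39% and 5.23% of all genes). Between LE and control 2 rose and 1 fell (20% and 10%, against 11.9% and 10.8% of all genes). Between hub and control 0 rose and 1 fell (0% and 10%, against 4.16% and 3.12% of all genes). Parp4 rose at the LE against hub by 0.36 ± 0.09 and against control by 0.35 ± 0.09 (adjusted p = 0.0334 and 0.0184), and Tnks2, a tankyrase gene, rose against control by 0.32 ± 0.09. With 1 array left out, 0 to 2 of the 10 were called as higher at the LE against hub, and 0 to 2 against control. Tiparp, a PARP gene induced by the aryl hydrocarbon receptor, fell at the LE by 0.50 ± 0.10 and in the hub by 0.71 ± 0.10 against control. Their differences between LE and hub ran from -0.36 to 0.51, beside -2.20 for Parp10.

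**Figure D2:**
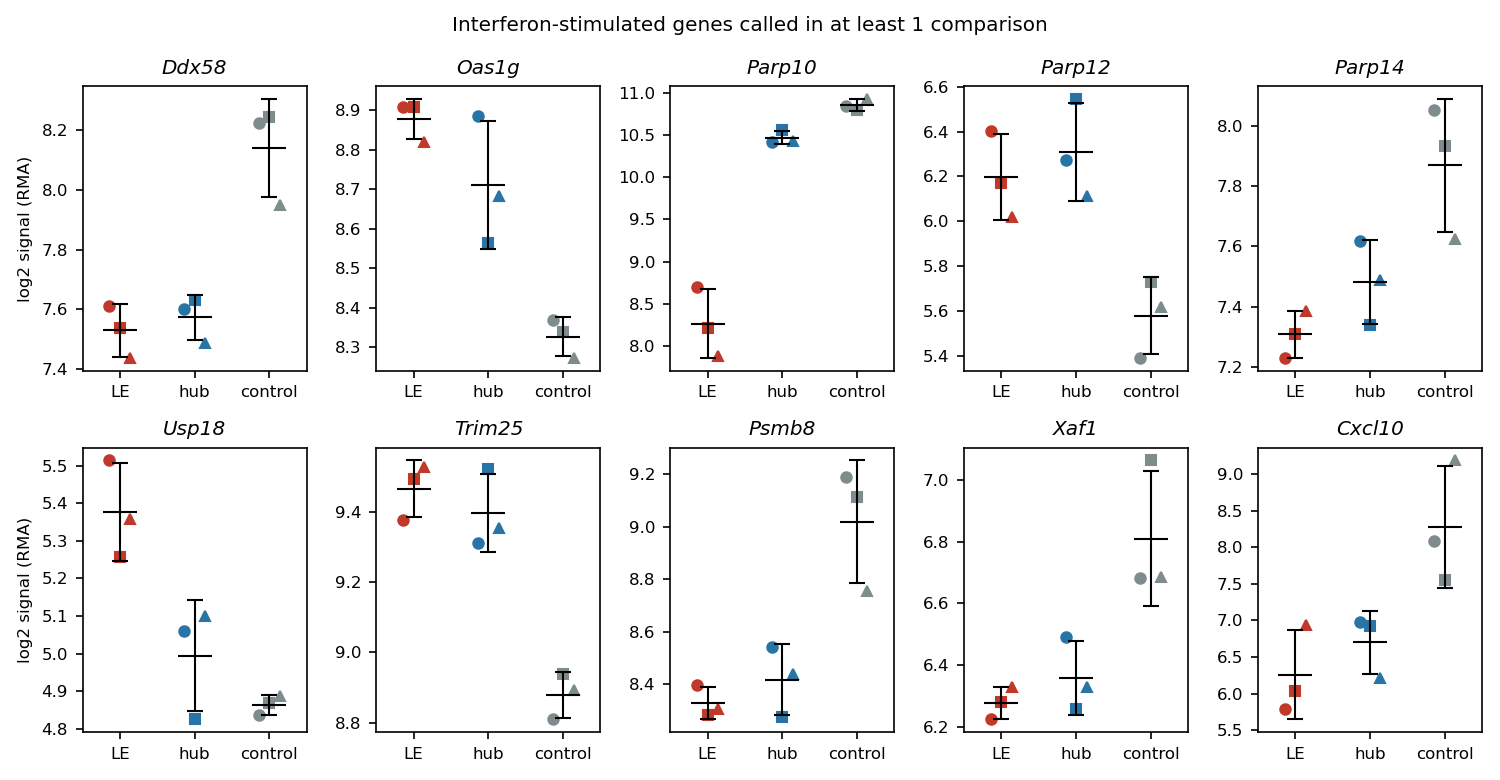
Log2 signal of the 10 interferon-stimulated genes called in at least 1 comparison, on each array of the LE, hub and control groups (circle, square and triangle, replicates 1 to 3; black line and bars, mean and SD, n = 3). Each panel has its own axis, which does not start at 0. Cxcl10 and Psmb8 are lower in both wound groups than in control, Trim25 and Parp12 are higher, and Parp10 is low at the LE alone.

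Among the sensors of viral RNA, Ddx58, which encodes RIG-I, was lower in both wound regions. It read 7.61, 7.54 and 7.44 at the LE and 7.60, 7.63 and 7.49 in the hub, against 8.22, 8.25 and 7.95 in control skin. The 6 wound arrays did not overlap the controls and were close to each other. Ddx58 fell by 0.61 ± 0.09 at the LE (adjusted p = 0.00129) and by 0.57 ± 0.09 in the hub (adjusted p = 0.00709) against control, and both calls held in every fit without 1 array (adjusted p up to 0.0339). Its 2 other probe sets were dimmer and were not called, at -0.23 and -0.02 for LE over control. Ifih1, which encodes the sensor MDA5, had 0.27 ± 0.12 for LE over control (adjusted p = 0.143), and the dim gene Dhx58, whose product LGP2 modulates the other sensors, was not called either.

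The oligoadenylate synthetases, which make a messenger that activates RNase L, showed 1 rise. Oas1g read 8.91, 8.91 and 8.82 at the LE and 8.88, 8.56 and 8.68 in the hub, against 8.37, 8.34 and 8.27 in control. All 6 wound arrays were above the controls. It rose by 0.55 ± 0.09 at the LE (adjusted p = 0.00143) and by 0.38 ± 0.09 in the hub (adjusted p = 0.0291). The hub call was lost without hub replicate 1, hub replicate 3 or any single control array (largest adjusted p = 0.0801), and in a fit of the 6 arrays compared (adjusted p = 0.0763). Oas1g belongs to a cluster of closely related mouse Oas1 genes, whose transcripts the probes may not tell apart. Oas2, Oas3, Oasl1 and Oasl2 differed by -0.06 to 0.21 over the 3 comparisons, and none was called.

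The enzymes that act on RNA and nucleotides were not called in any comparison. Adar, an RNA editing enzyme that turns adenosine into inosine, read 8.45, 8.43 and 8.31 at the LE, against 8.80, 8.74 and 8.56 in the hub and 8.74, 8.82 and 8.53 in control. The LE arrays lay below all others, by a difference of -0.30 ± 0.10 from both hub (adjusted p = 0.0835) and control (adjusted p = 0.0507). With array weights or the replicate block both differences passed the threshold (adjusted p from 0.0215 to 0.0480). Eif2ak2, the kinase PKR that halts translation on double-stranded RNA, read 6.63 to 6.75 at the LE and 6.51 to 6.75 in the hub, against 7.28, 6.45 and 6.28 in control, where replicate 1 stood apart. Without that array it was called as higher at the LE (0.34, adjusted p = 0.0388), against 0.03 with it. Cmpk2, a mitochondrial nucleotide kinase, differed by -0.10 to -0.03.

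The IFIT genes encode proteins that bind viral RNA lacking self marks. Ifit3 read 7.41, 7.39 and 7.56 at the LE, against 7.31, 7.19 and 7.17 in the hub and 7.15, 7.17 and 7.31 in control. Its LE arrays were above all others by a small margin, and the difference from control of 0.25 ± 0.08 came to adjusted p = 0.0505. It passed the threshold after repeated quantile normalization, median centring, removal of dim genes or averaging of probe sets (adjusted p from 0.0265 to 0.0480), and without control replicate 3 (adjusted p = 0.0382). Ifit1 and Ifit2 were dim on all 9 arrays, at 4.33 to 5.42, and were not called.

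Genes of the transcription factors that carry the interferon signal into the nucleus were not called. Irf9, which encodes a DNA-binding factor that works with STAT2, read 8.71, 8.85 and 8.52 at the LE, against 9.06, 9.11 and 9.20 in the hub and 9.35, 9.25 and 8.80 in control. LE and hub arrays did not overlap, and the difference of -0.42 ± 0.14 had an adjusted p of 0.0976. That against control was -0.44 ± 0.14 (adjusted p = 0.0540). Without control replicate 3 Irf9 was called as lower at the LE against both hub (-0.42, adjusted p = 0.0215) and control (-0.61, adjusted p = 0.00396). Irf1, which is also induced by interferon gamma, read 9.14, 9.03 and 9.19 at the LE and 9.48, 8.86 and 8.83 in the hub, against 9.46, 9.79 and 9.36 in control. Hub replicate 1 stood with the controls, and without it Irf1 was called as lower in the hub (-0.69, adjusted p = 0.0191) and at the LE (-0.42, adjusted p = 0.0314). Irf7, which amplifies type I interferon production, and Stat2 differed by -0.07 to 0.23.

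Both measured members that act with the ubiquitin-like protein ISG15 were higher at the LE than in control. Trim25, a ubiquitin ligase that activates RIG-I and can also attach ISG15, read 9.38, 9.49 and 9.53 at the LE and 9.31, 9.52 and 9.35 in the hub, against 8.81, 8.94 and 8.89 in control. Every wound array was above every control array. Trim25 rose by 0.59 ± 0.08 at the LE (adjusted p = 0.000625) and by 0.52 ± 0.08 in the hub (adjusted p = 0.00505), and kept both calls with any 1 array left out (adjusted p up to 0.0210). Usp18, which removes ISG15 and restrains the type I receptor, read 5.51, 5.26 and 5.36 at the LE, against 5.06, 4.82 and 5.10 in the hub and 4.84, 4.87 and 4.89 in control. The LE arrays lay above all others, at dim signal throughout. It rose by 0.38 ± 0.09 against hub (adjusted p = 0.0301) and by 0.51 ± 0.09 against control (adjusted p = 0.00336). The call against hub was lost without LE replicate 1 or 3 or hub replicate 1 or 2 (adjusted p up to 0.0992), and in a fit of the 6 arrays compared (adjusted p = 0.0510).

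**Figure D3:**
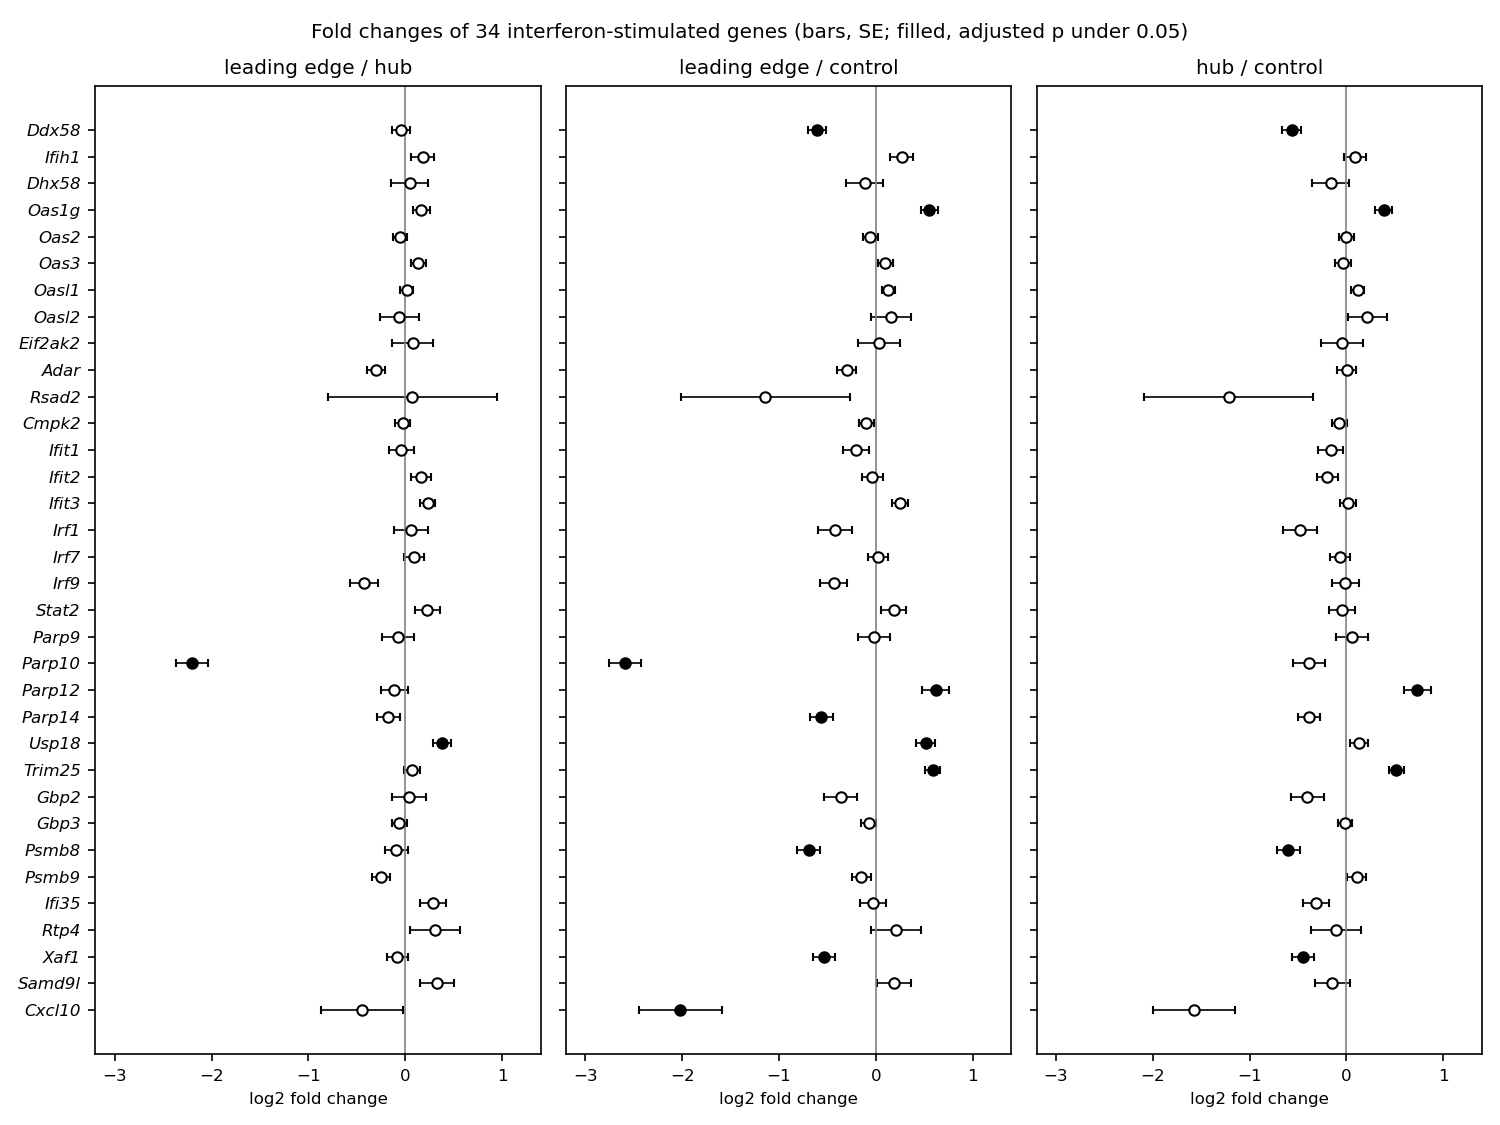
Log2 fold change of each of the 34 interferon-stimulated genes for LE over hub, LE over control and hub over control (points; bars, SE from limma; filled points, adjusted p under 0.05). Most points lie near 0, Parp10 stands at -2.20 and -2.59 in the LE comparisons, and Cxcl10 at -2.02 for LE over control.

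The chemokine gene Cxcl10, whose product draws T cells through the receptor CXCR3, was the other member with a large difference. It read 5.79, 6.04 and 6.94 at the LE and 6.97, 6.92 and 6.21 in the hub, against 8.09, 7.55 and 9.19 in control skin. The controls were above all wound arrays and spread widely among themselves. Cxcl10 fell by 2.02 ± 0.42 at the LE against control (4.05-fold, adjusted p = 0.00724), a call that held with any 1 array left out (adjusted p up to 0.0335). In the hub the value against control was -1.57 ± 0.42 (adjusted p = 0.0565), which passed the threshold without control replicate 2 (-1.94, adjusted p = 0.0293). Without control replicate 3 the hub value was -1.12. The mean of 8 T cell markers was 6.56 to 6.71 at the LE, 6.69 to 6.80 in the hub and 6.71 to 6.81 in control. Of the 8, Thy1 alone was called, as lower at the LE against hub (-1.23) and control (-1.28). Their part in the Cxcl10 values was not tested. None of the 6 other interferon-induced chemokine genes, Cxcl9, Cxcl11, Ccl2, Ccl5, Ccl7 and Ccl12, was called in any comparison by limma, and 0 of them had an unadjusted p under 0.05, but 4 of the 6 were dim.

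Psmb8 and Psmb9 encode catalytic subunits of the immunoproteasome, which cuts proteins into peptides for MHC class I. Psmb8 read 8.40, 8.28 and 8.30 at the LE and 8.54, 8.27 and 8.44 in the hub, against 9.19, 9.11 and 8.75 in control. The wound arrays were all below the controls. It fell by 0.69 ± 0.12 at the LE (adjusted p = 0.00228) and by 0.60 ± 0.12 in the hub (adjusted p = 0.0155), and the hub call was lost without hub replicate 2 or 3 (adjusted p up to 0.0598) and in a fit of the 6 arrays compared (adjusted p = 0.0553). Psmb9 did not follow it, at 8.47, 8.31 and 8.50 at the LE, 8.65, 8.63 and 8.76 in the hub and 8.40, 8.72 and 8.61 in control, and was not called. Its 2 dimmer probe sets were not called either.

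Of 18 other listed genes of antigen processing and MHC class I, 14 were measured. B2m, H2-Q7, Tap1 and Tap2 were not among them. At the LE 1 of the 14 rose and 5 fell against control (7.14% and 35.7%, against 11.9% and 10.8% of all genes). In the hub 1 rose and 4 fell against control (7.14% and 28.6%, against 4.16% and 3.12% of all genes). Between LE and hub 2 rose and 0 fell (14.3% and 0%, against 5.39% and 5.23% of all genes). The number that fell was 3 to 5 at the LE and 2 to 4 in the hub when each array in turn was left out. H2-Q4, a nonclassical class I gene, read 8.69, 8.07 and 8.20 at the LE and 8.95, 8.80 and 8.71 in the hub, against 9.49, 9.41 and 9.94 in control. It fell by 1.30 ± 0.18 at the LE (adjusted p = 0.000644) and by 0.80 ± 0.18 in the hub (adjusted p = 0.0279). Tapbp, which encodes tapasin, the protein that helps load peptides onto class I, fell by 0.74 ± 0.09 at the LE and by 0.46 ± 0.09 in the hub. Psme2, a subunit of the proteasome activator PA28, fell by 0.57 ± 0.09 at the LE, and H2-T23 fell in both regions, by 0.43 ± 0.10 and 0.44 ± 0.10. H2-D1 was an exception: it read 12.78, 12.75 and 12.87 at the LE, against 12.13, 12.33 and 12.35 in the hub and 12.86, 12.83 and 12.79 in control, so the hub alone was low. It rose at the LE against hub by 0.53 ± 0.08 (adjusted p = 0.00238) and fell in the hub against control by 0.56 ± 0.08 (adjusted p = 0.00326). Class I genes are similar in sequence, and their probes may share signal. The chaperone gene Calr rose at the LE against hub by 0.35 ± 0.06 and against control by 0.60 ± 0.06, and its rise in the hub against control (0.25 ± 0.06, adjusted p = 0.0488) was lost in every fit without 1 array.

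**Figure D4:**
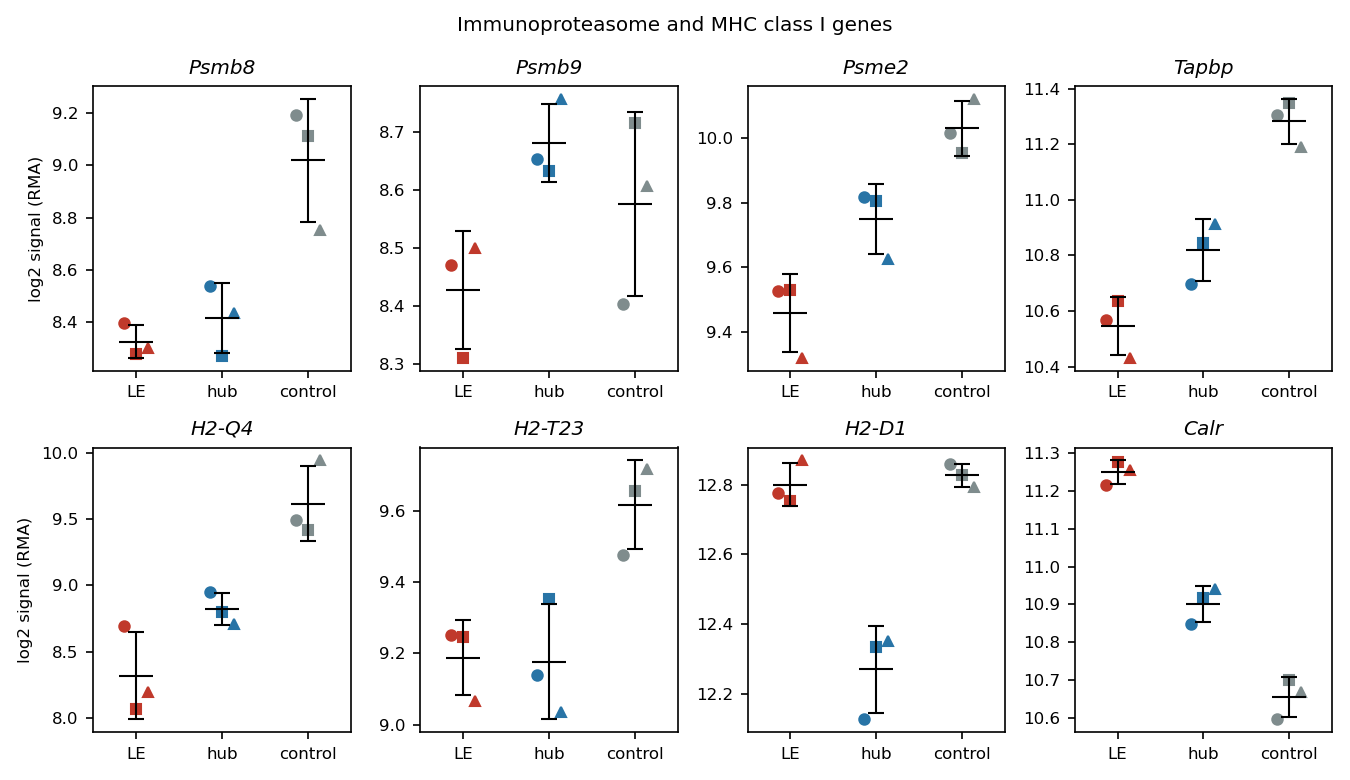
Log2 signal of 2 immunoproteasome members (Psmb8, Psmb9) and 6 other genes of antigen processing on each array (circle, square and triangle, replicates 1 to 3; black line and bars, mean and SD, n = 3 in each of the LE, hub and control groups). Each panel has its own axis, which does not start at 0. H2-Q4, Tapbp and H2-T23 are lower in both wound groups than in control, H2-D1 is low in the hub alone, and Calr is highest at the LE.

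Xaf1, which encodes an antagonist of the apoptosis inhibitor XIAP, was the remaining called member. It read 6.22, 6.28 and 6.33 at the LE and 6.49, 6.26 and 6.33 in the hub, against 6.68, 7.06 and 6.69 in control. It fell by 0.53 ± 0.11 at the LE (adjusted p = 0.00714) and by 0.45 ± 0.11 in the hub (adjusted p = 0.0407), and the hub call was lost in 6 of the 9 fits without 1 array (any LE array, hub replicate 2 or 3, or control replicate 2, largest adjusted p = 0.135). It was also lost with the replicate block (adjusted p = 0.0788), with the mean of its probe sets (adjusted p = 0.0657) and in a fit of the 6 arrays compared (adjusted p = 0.103). The second Xaf1 probe set was dimmer and not called (-0.17 for LE over control). Ifi35, the chaperone gene Rtp4 and Samd9l, a restriction factor gene, differed by -0.32 to 0.33 and were not called. Gbp2 and Gbp3, guanylate-binding GTPases that attack vacuoles of pathogens, were not called, and Gbp3 was dim at 3.92 to 4.16.

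Single arrays stood apart for some members, most of all control replicate 3. Rsad2, which encodes the antiviral enzyme viperin, read 5.95, 5.48 and 5.86 at the LE and 5.97, 5.54 and 5.57 in the hub, against 5.47, 5.71 and 9.54 in control. Control replicate 3 was thus far above the other 8 arrays, which did not differ by more than their spread. The same array was the highest for the other 2 probe sets of Rsad2, at 6.88 and 5.81, against 5.69 to 6.02 and 4.61 to 4.91 on the other arrays. The fitted difference of -1.14 ± 0.87 for LE over control rests on that array (adjusted p = 0.417). Gbp2 read 6.58 in control replicate 3 and 5.64 to 5.89 elsewhere, and Cxcl10 read 9.19 there. The chemokine gene Cxcl9, named here after its values were seen, read 7.31 in control replicate 3 and 4.64 to 5.42 elsewhere. In that array 3 members exceeded both other controls by at least 0.5 (8.82% of members, against 1.02% of all genes). Other arrays also exceeded the rest of their group by as much. These were control replicate 1 for Dhx58 and Eif2ak2 (5.88%, against 1.61% of all genes) and hub replicate 1 for Irf1 and Rtp4 (5.88%, against 0.409%). LE replicate 3 did so for Cxcl10 (2.94%, against 0.211%). Control replicate 3 was the highest of the 9 arrays for 8 of the 34 members (23.5%, against 12.3% of all genes). Myeloid markers averaged 5.95 there, against 5.92 and 5.84 in the other controls. Without control replicate 3, 5 members were called as higher and 8 as lower at the LE against control, in a fit that called 3558 of all genes, against 3891 with that array.

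**Figure D5:**
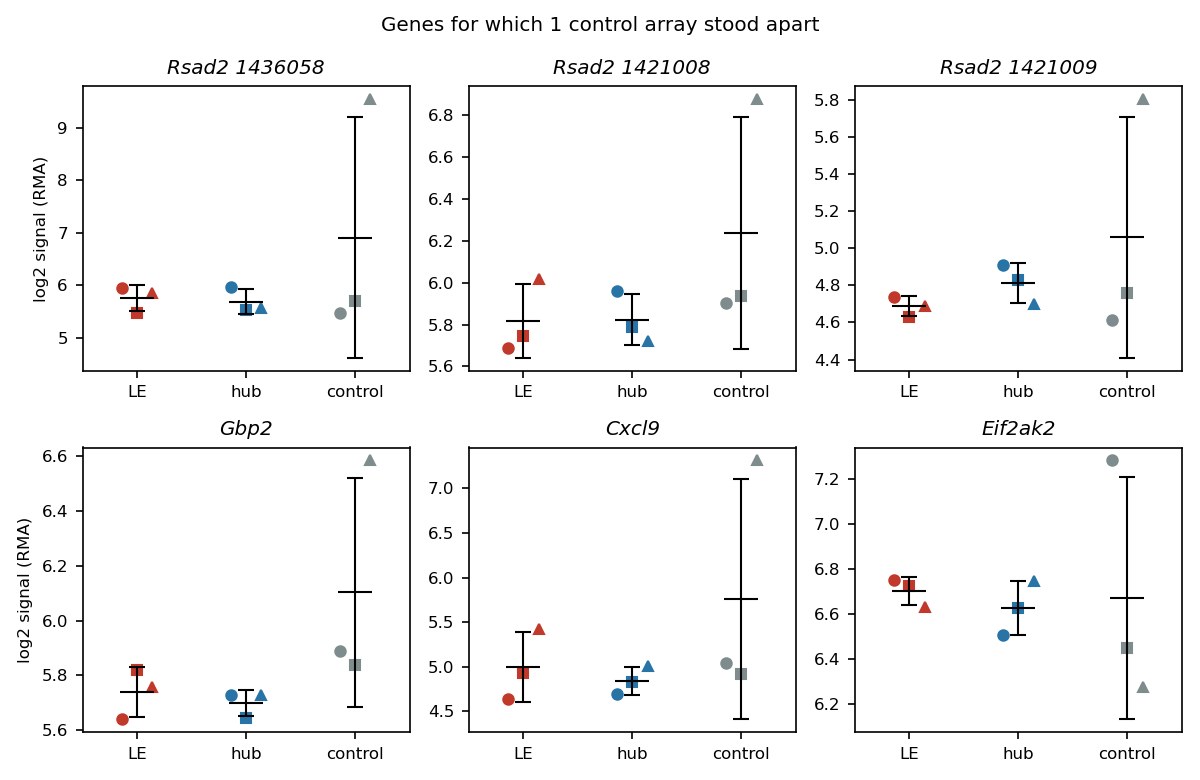
Log2 signal on each array for the 3 probe sets of Rsad2 (top) and for Gbp2, Cxcl9 and Eif2ak2 (bottom), with circle, square and triangle for replicates 1 to 3 and black line and bars for mean and SD (n = 3 in each of the LE, hub and control groups). Each panel has its own axis, which does not start at 0. Control replicate 3 stands above all other arrays for Rsad2, Gbp2 and Cxcl9, and control replicate 1 for Eif2ak2.

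Upstream of the members, 11 of 19 listed interferon genes were measured, and none was called. Ifnk, Ifne and the type III genes Ifnl2 and Ifnl3 were not among those measured. The 11 measured ligands, among them Ifnb1 and Ifng, differed by -0.32 to 0.25 over the 3 comparisons (0 called by limma; at an unadjusted p under 0.05, 3 were higher at the LE against control and 1 lower at the LE against hub), and 5 of them were dim. Receptors and kinases went both ways at the LE, with 2 of 10 higher and 2 lower against hub, and 2 higher and 2 lower against control. Each count is 20% of the list. Of all genes, 5.39% were higher and 5.23% lower against hub, and 11.9% higher and 10.8% lower against control. Ifngr1, a chain of the interferon gamma receptor, read 9.16, 9.10 and 8.98 at the LE, against 9.55, 9.53 and 9.54 in the hub and 9.36, 9.57 and 9.71 in control. It fell by 0.46 ± 0.09 against hub (adjusted p = 0.0139) and by 0.47 ± 0.09 against control (adjusted p = 0.00612). Jak1, the kinase shared by interferon receptors, fell by 0.29 ± 0.07 and 0.34 ± 0.07. Jak2, which serves the gamma receptor, rose by 0.62 ± 0.10 and 0.42 ± 0.10, and Il10rb, a chain of the type III receptor, rose by 0.36 ± 0.10 (adjusted p = 0.0498) and 0.48 ± 0.10 (adjusted p = 0.00663). With 1 array left out, 1 to 2 of the 10 were called as higher in either comparison. Between hub and control none of the 10 was called by limma (3 lower at an unadjusted p under 0.05).

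Of 15 sensing adaptors and upstream factors, Irf2, a regulator of interferon responses with dim signal, was the 1 called gene (-0.53 ± 0.16 for LE over control, adjusted p = 0.0414). It is 6.67% of the list, against 10.8% of all genes called as lower there. With 1 array left out, 0 to 1 gene of this list was lower there. Of 14 negative regulators, 3 rose at the LE against control and none fell (21.4% and 0%, against 11.9% and 10.8% of all genes). They were the cytokine signalling inhibitor Socs3 (0.82 ± 0.19), the nucleotide hydrolase Samhd1 (0.58 ± 0.11) and Nlrx1 (0.80 ± 0.24, limma adjusted p = 0.0366). With 1 array left out, 2 to 3 of the 14 were called as higher there and 0 to 1 as lower. Nlrx1 read 9.26, 9.39 and 9.19 at the LE, against 8.50, 7.88 and 9.07 in control, where the arrays spread widely. Socs3 read 8.53, 8.53 and 8.54 at the LE, against 7.74, 8.25 and 7.94 in the hub and 7.41, 8.17 and 7.54 in control.

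A second list, of 54 other measured type I interferon-stimulated genes, also held genes of both directions. At the LE 7 rose and 7 fell against control (13.0% each, against 11.9% higher and 10.8% lower of all genes). Against hub 5 rose and 3 fell (9.26% and 5.56%, against 5.39% and 5.23% of all genes). In the hub 3 rose and 2 fell against control (5.56% and 3.70%, against 4.16% and 3.12% of all genes). In the same order their median log2 fold changes were 0.08, 0.06 and -0.02. The rises were led by Tmem140, which read 9.89, 9.77 and 9.63 at the LE and 8.62, 8.59 and 8.16 in the hub, against 7.31, 6.46 and 6.51 in control. It rose by 3.00 ± 0.22 at the LE against control (adjusted p = 1.2e-05) and by 1.30 ± 0.22 against hub (adjusted p = 0.00455). Slfn2, a Schlafen gene known from immune cells, rose by 1.01 ± 0.13 against control, and Isg20, an exonuclease gene, by 0.72 ± 0.14. Myeloid markers were also higher at the LE, as given above, and of the 17 such markers 3 were called as higher against control (17.6%, against 11.9% of all genes). Their part in these rises was not tested. The falls were led by Ifi27, which read 10.22, 10.06 and 9.85 at the LE, against 10.82, 10.75 and 10.55 in the hub and 11.24, 11.16 and 11.30 in control. It fell by 0.66 ± 0.11 against hub and by 1.19 ± 0.11 against control (adjusted p = 0.0039 and 4.62e-05). Ifitm2 and Ifitm3, whose products block entry of viruses, fell at the LE against hub by 0.49 ± 0.06 and 0.34 ± 0.07 and were not called between hub and control. Zc3hav1, the zinc finger antiviral protein gene, fell in the hub by 0.87 ± 0.11 and at the LE by 0.50 ± 0.11 against control. Mx1, a GTPase gene used as a marker of type I and III interferon, differed by 0.03 to 0.14 and was not called. Of 10 GTPases regulated by interferon gamma, 7 of them dim, Gbp7 (-0.85 ± 0.15) and Gbp10 (-0.36 ± 0.10) fell at the LE against control and none rose. The 2 that fell are 20% of that list, against 10.8% of all genes.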

How the data were processed

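RNA of sorted basal cells from 3 regions was amplified and hybridised to Affymetrix mouse expression arrays, with 1 array for each sample. The authors processed the arrays with RMA (version not given in the sources used here), so the deposited values are on a log2 scale. Their distributions are close but not the same across arrays (medians 6.47 to 6.53). Differences of dim genes are compressed, and a change in total RNA cannot be seen. No counts or depth apply, and the number of arrays limits precision. GEO's platform annotation gave 1 symbol to 28898 of 45141 probe sets; the brightest stood for each of 17097 genes. All 9 arrays entered 1 model with group means (limma 3.58.1, R 4.3.3, lmFit and eBayes, two-sided), which was tested on simulated data. The members and lists were chosen with earlier results of these data known. Members called with a log2 fold change of at least 0.5, and up to 4 called genes per other list, are given in full; members close to the threshold, and others so marked, were added after their values were seen. No set tests were run. Promoter sequences are RefSeq's (GRCm38.p6). The fit was repeated without each array, on the 6 arrays compared, without dim genes, with each gene's mean or single probe sets, with 2-fold rules, after median centring or a second quantile normalization, and with array weights, a trend in the prior variance or the replicate number as a block. The alternatives for the other lists were added after the data were seen.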

Additional observations from a re-analysis of the deposited data

How the results depend on the processing

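The number of members called was 2 between LE and hub, 10 between LE and control and 6 between hub and control. With 1 array left out it ranged from 1 to 3, 10 to 13 and 3 to 6, while the number of all genes called ranged from 1225 to 1961, 3008 to 3691 and 699 to 1153. Between LE and hub it was 4 with array weights (2575 of all genes) and 1 with dim genes left out, which removes Usp18 (1870 of all genes). It was 1 (Parp10) with a 2-fold minimum (319 of all genes). The fold rule of the methods asks for over 2-fold in all 3 replicates, taken here as differences between same-numbered arrays. It also left 1 member (Parp10), with 178 of all genes. Both fold rules left 2 members (Parp10 and Cxcl10) between LE and control and 0 between hub and control. There the 2-fold minimum left 803 and 186 of all genes, and the fold rule of the methods left 515 and 89. Same-numbered arrays did not deviate together (correlation of deviations from -0.18 to 0.08 over 9 pairs), so the numbers were not taken as pairs in the main fit. With the replicate block 3, 11 and 5 members were called. Of the 18 calls, 14 held in every fit with 1 array left out, and 14 were not lost in any other fit that tested them, apart from the fold rules and single probe sets. No called value changed sign. Of the other type I interferon-stimulated genes, 5 to 7 were higher and 4 to 7 lower at the LE against control with 1 array left out. Of the 9 values that other probe sets gave for called results, 0 were called (Ddx58, Parp14, Psmb8 and Xaf1). Members with dim signal can hide differences that RMA compresses.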

Other observations

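The nearest measured genes on either side of Parp10 in the annotation were Plec and Grina. Plec, which encodes plectin, differed the other way, by 0.31 ± 0.06 for LE over hub (adjusted p = 0.0134), and Grina by -0.13 ± 0.10 (adjusted p = 0.524, limma). Parp10 was measured by 1 probe set.

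Of the Langerhans and dendritic cell list, 3 genes were chosen here after their values were seen. The MHC class II gene H2-Ab1 read 7.88, 8.02 and 9.55 at the LE, against 6.71, 6.44 and 6.51 in the hub and 5.89, 6.16 and 6.37 in control, while H2-Aa read 7.40 to 7.69 at the LE, 7.53 to 7.71 in the hub and 7.48 to 7.62 in control. The Langerhans cell gene Cd207 read 5.02 to 5.39 at the LE, 5.22 to 5.36 in the hub and 5.24 to 5.44 in control.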
